A study of Homo sapiens with 17 samples.

Results

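The genes described are 49 genes of the lysosome and of autophagy, given as a list of symbols, and 49 of the 49 were among the 17808 genes of the RPKM table (reads per unit length of gene model, scaled to the library's counted reads). They comprise 3 lysosomal membrane proteins, 9 lysosomal hydrolases, 9 subunits of the lysosomal proton pump, 5 transcription factors and nutrient sensors, 10 factors of autophagosome initiation and membrane supply, 5 conjugation enzymes, 4 proteins of the ATG8 family and 4 cargo receptors. The 23 genes of the last 4 roles are called autophagy factors. The series has 17 samples of cells labelled HepG2, a human liver cancer line, wild type in genotype and grown in DMEM with serum, and its title concerns BRD9 and histone lactylation. RNA-seq was done on 9 libraries in 3 groups: cells given 40 mM 2-DG (2-deoxyglucose, a glucose analogue that cells phosphorylate but do not carry through glycolysis) for 48 h, cells given 40 mM Nala (named here as in the labels), and untreated cells, called NC. The series states 3 biological replicates per group. Sample titles give 48 h for Nala and 24 h for NC, while the series design gives 24 h for Nala. Time in culture and 2-DG treatment therefore cannot be told apart, since the 2-DG cells were sampled at 48 h and the NC cells at 24 h. If Nala was sampled at 48 h, the same holds for Nala against NC. If at 24 h, it holds for Nala against 2-DG. Beside these, 6 samples of ChIP-seq and 2 of ATAC-seq were left unused.

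In macroautophagy, a double membrane grows around a piece of cytoplasm, closes to an autophagosome and fuses with a lysosome, where acid hydrolases break the contents down. A protein kinase complex and a lipid kinase complex start the membrane, a lipid transfer protein feeds it, and ubiquitin-like conjugation enzymes couple ATG8 proteins to its lipids, which cargo receptors then bind. The lysosome is acidified by the V-type proton pump, and its surface is where the Rag GTPases bring the growth kinase mTORC1 in response to amino acids. The transcription factors TFEB and TFE3 bind E-boxes in promoters of many lysosome and autophagy genes and are kept in the cytoplasm by mTORC1 when nutrients are plentiful. In liver cells autophagy is known for supplying amino acids during fasting and for clearing damaged organelles and protein aggregates.

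The libraries held between 6199778 and 6653130 counted reads, so that 1 read in a 1 kb gene was worth 0.150 to 0.161 RPKM, and the 12922 genes that reached 1 RPKM in 3 or more libraries were tested. Among genes typical of hepatocytes, APOB (apolipoprotein B) had at most 1 read per library and TF (transferrin) at most 3. The transcription factor HNF4A had 2.18 to 3.30 RPKM with 2-DG, 1.61 to 2.15 with Nala and 1.41 to 2.38 in NC. Albumin, alpha-fetoprotein and most other hepatocyte markers were not analysed here, and the highest value in the whole table was 229.6 RPKM, so the label of the cells was checked on these few low genes only. Of 4 ductal markers KRT7 stood at 110 to 140 RPKM over the 9 libraries, while EPCAM had 1.42 to 3.76 and KRT19 and SOX9 at most 0.818 and 0.158 RPKM. Among 5 proliferation genes the summed level was 68.6 to 78.9 RPKM with 2-DG, 255 to 279 with Nala and 298 to 317 in NC; their part in the results below was not tested. Nala replicates 2 and 3 differed by less than sampling noise (chi-square per degree of freedom 0.903 over 12886 genes, against 2.78 to 3.05 for Nala replicate 1 with either) and were counted as 1 sample. 2-DG replicate 1 stood apart from 2-DG replicates 2 and 3 in a way that went with gene length. Its log2 level differed from their mean by a median of -0.17 over the 3236 genes with the shortest models (20 to 1906 bp) and of 0.010 over the 3231 with the longest (4587 to 27748 bp). Nala replicate 1 differed from Nala replicates 2 and 3 along length in the same direction, by medians of -0.091 and 0.043 over these genes. For NC replicate 1 the medians were -0.0008 and 0.0088. Of the 47 tested lysosome and autophagy genes 28 were lower in 2-DG replicate 1 than in the other 2-DG libraries, with a median difference of -0.14.

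Treatment with 2-DG was accompanied by higher RNA levels of many autophagy factors and by a mixed picture for lysosomal enzymes. Of the 47 genes that passed the filter, 18 rose against NC, 3 fell and 26 were not called, with limma on log2(RPKM + 1) at a Benjamini-Hochberg adjusted p under 0.05 over all genes tested. Of all 12922 genes 22.6% were called higher and 20.7% lower in that comparison. The corresponding shares of the tested lysosome and autophagy genes were 38.3% and 6.38%, and their median log2 fold change was 0.20, against 0.0225 over all genes. The list and its roles were chosen with earlier results of these data known, and the difference between these shares was not tested. Autophagy factors had 9 higher and 0 lower of 23 (39.1% higher, median 0.20). Proton pump subunits had 4 higher and 0 lower of 9 (44.4% higher, median 0.29), and lysosomal enzymes had 1 higher and 2 lower of 8 (12.5% and 25%, median -0.0011). Without 2-DG replicate 1, 25 genes were higher and 3 lower, among them 14 autophagy factors and 6 pump subunits higher. The enzymes kept counts of 1 higher and 2 lower, and over all genes 3296 of 12804 were then higher and 2722 lower. In bulk RNA a change in the mix of cells and a change within each cell cannot be told apart. Of the fibroblast markers, COL3A1 had 1.02 to 2.50 RPKM with 2-DG, 11.5 to 12.9 with Nala and 7.82 to 9.97 in NC, and PDGFRB had 5.05 to 5.56, 12.6 to 13.9 and 8.63 to 14.8 RPKM in the same groups. COL1A1, the most abundant of the list, overlapped between the groups, at 26.1 to 42.8 RPKM with 2-DG, 34.6 to 44.3 with Nala and 28.0 to 59.1 in NC. DCN was low, with at most 0.0678, 0.526 and 1.27 RPKM in these groups. The 4 fibroblast markers read (COL1A1, COL3A1, DCN and PDGFRB) summed to 33.2 to 50.9 RPKM with 2-DG, 60.3 to 69.7 with Nala and 44.6 to 85.1 in NC, and their part in the results was not tested.

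**Figure D1:**
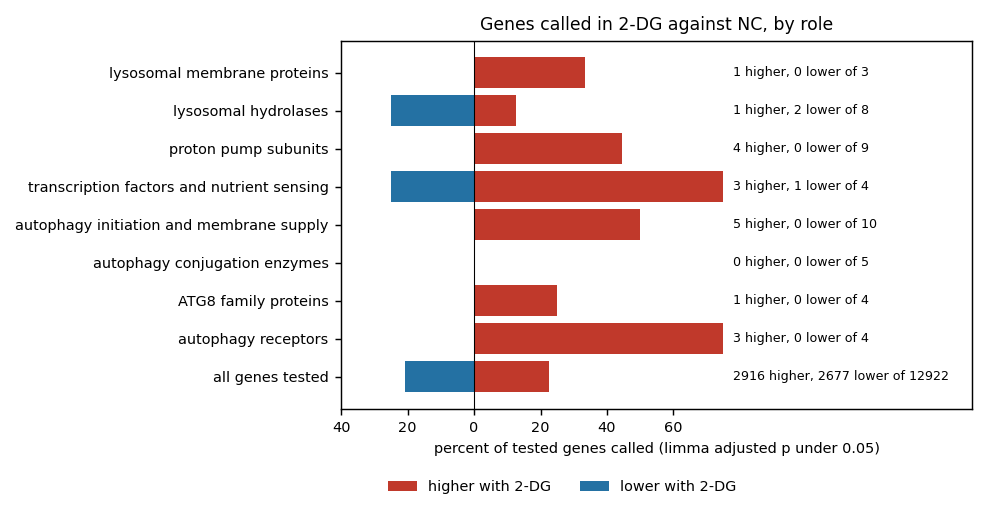
Percent of tested genes called higher (bars to the right) or lower (bars to the left) with 2-DG against NC, for the 8 roles and for all 12922 genes, with the counts written beside the bars. Conjugation enzymes had 0 genes called in either direction, and the bars of the hydrolases and of the transcription factors and sensors run both ways.

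**Figure D2:**
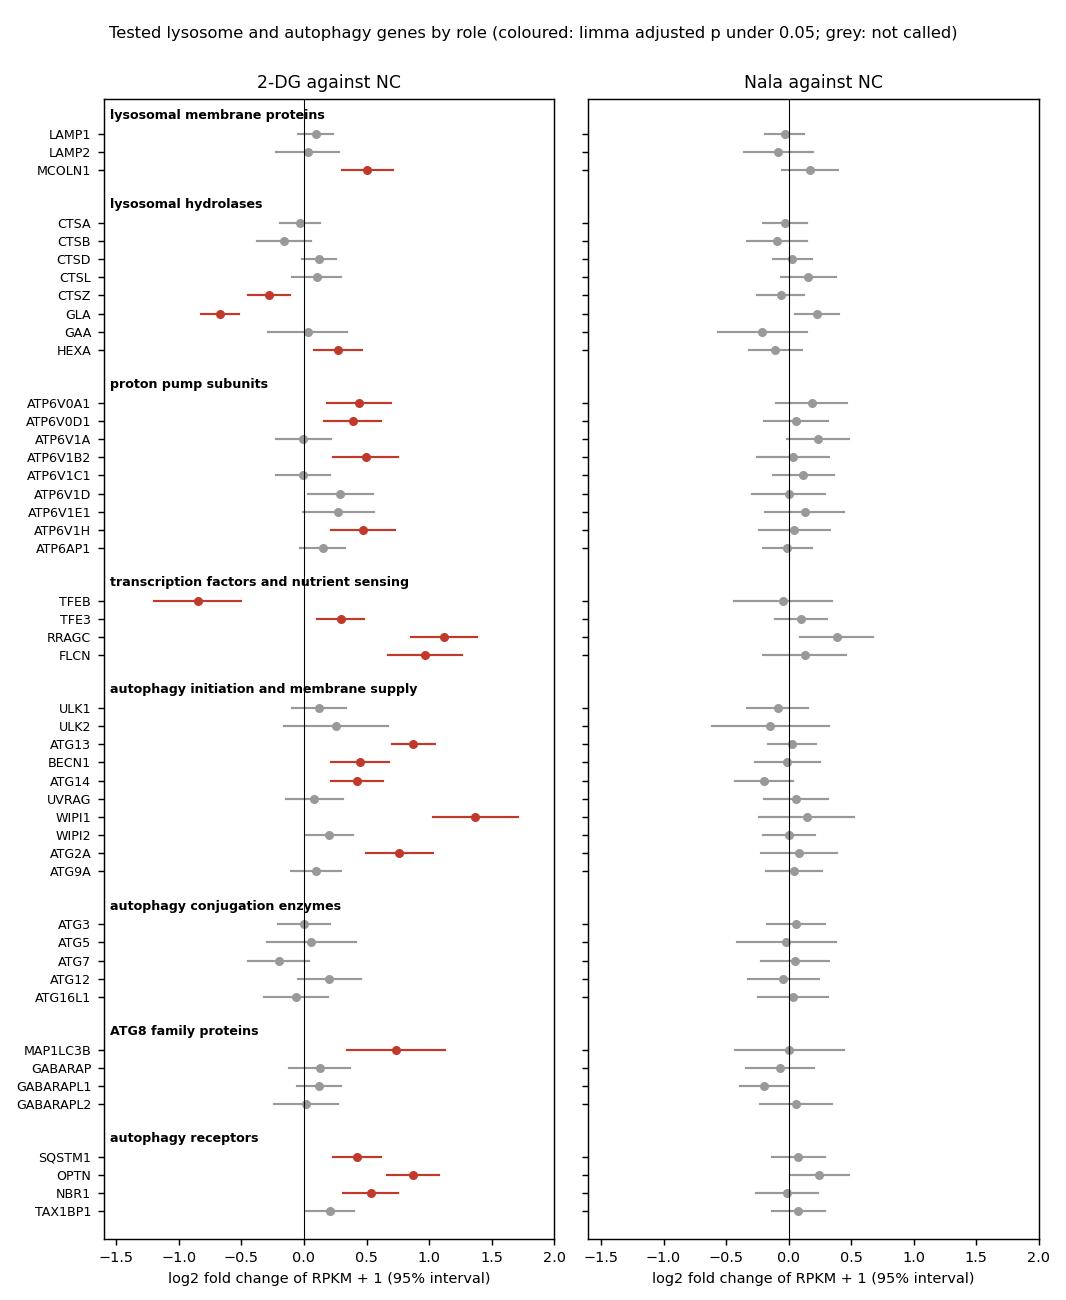
Log2 fold change of RPKM + 1 (horizontal axis) with its 95% interval from limma for the 47 tested genes grouped by role, 2-DG against NC on the left and Nala against NC on the right; coloured points passed an adjusted p under 0.05. The 2-DG panel has coloured points from -0.85 (TFEB) to 1.37 (WIPI1), and the Nala panel has none.

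Among the transcription factors and nutrient sensors, the 4 tested genes were called in 2-DG against NC, 3 higher and 1 lower. RRAGC (chromosome 1, 38838198 to 38859772) encodes a Rag GTPase that tethers mTORC1 to the lysosome and also takes part in holding TFEB there. Its level was 24.2, 33.3 and 30.2 RPKM with 2-DG in replicates 1, 2 and 3, 16.9, 16.7 and 17.5 RPKM with Nala and 12.7, 12.9 and 12.8 RPKM in NC. Each 2-DG library lay above each other library, 2-DG replicate 1 being the lowest of its group, and RRAGC rose by 1.12 (SE 0.12, limma adjusted p = 9.54e-05). FLCN (chromosome 17, 17212212 to 17237330), which encodes folliculin, the GTPase activating protein for RagC and RagD, had 42.6, 36.7 and 42.9 RPKM with 2-DG, 19.5, 25.97 and 24.9 RPKM with Nala and 17.3, 22.4 and 21.7 RPKM in NC. Again the 2-DG libraries did not overlap the others, and the increase over NC was 0.97 (SE 0.13, limma adjusted p = 0.000447).

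TFEB and TFE3, which encode related factors that bind the same E-box, moved in opposite directions with 2-DG. TFEB (chromosome 6, 41683978 to 41736223) was the less abundant, with 4.85, 5.48 and 4.54 RPKM with 2-DG, 7.99, 11.4 and 10.7 RPKM with Nala and 10.6, 8.06 and 10.7 RPKM in NC. The 3 2-DG libraries were the 3 lowest of the 9, and TFEB fell by 0.85 (SE 0.16, limma adjusted p = 0.00222). TFE3 (chromosome X, 49028726 to 49043357) had 44.2, 46.2 and 45.9 RPKM with 2-DG, 37.2, 42.8 and 41.2 RPKM with Nala and 34.1, 39.9 and 36.8 RPKM in NC. Its 2-DG libraries lay above the NC libraries by a small margin, a rise of 0.29 (SE 0.083, limma adjusted p = 0.0181). That call was lost when any one of 2-DG replicate 2, 2-DG replicate 3, NC replicate 1 or NC replicate 3 was left out (adjusted p = 0.0538 to 0.0606). RRAGD, which encodes the paralogue RagD, did not reach the filter on low values, with 0.982, 1.21 and 1.10 RPKM with 2-DG, 0.346, 0.428 and 0.214 RPKM with Nala and 0.441, 0.217 and 0.131 RPKM in NC. These values rest on 30, 39 and 35 reads with 2-DG, 11, 14 and 7 with Nala and 14, 7 and 4 in NC. The 2-DG libraries of RRAGD did not overlap the others, and in the fit with no filter the difference from NC was 0.74 (limma adjusted p = 0.00135).

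Because TFEB and TFE3 act through E-boxes, the promoters of the genes were read for the letters CACGTG, the core of that box, in the RefSeq window (GRCh38.p14) of 250 bases before to 50 bases after the annotated start, both strands giving the same letters. A window was at hand for 40 of the 49 genes, and 10 of the 40 (25%) held the core, against 12.7% of 10009 tested genes and 8.77% of 27305 genes with a window. The longer form TCACGTGA, which includes the core, was in 6 of 40 (15%), against 2.28% of the tested genes. Among genes with a window, 4 of 15 called higher with 2-DG held the core, 5 of 21 not called and 0 of 3 called lower; NEU1, which was not tested, held it too. The letters TGATGNAA, read on both strands as the core of the element bound by ATF4 dimers, were in 0 of 40 windows, against 2.76% of the tested genes. The stretches around the cores are shown for the 4 genes that rose with 2-DG and for 2 abundant lysosomal genes that were not called, with CACGTG in capitals, 5′ to 3′ on the strand of the gene.
RRAGC (chr1:38859859-38859904, minus strand): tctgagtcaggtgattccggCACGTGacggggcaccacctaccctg
ATG14 (chr14:55411826-55411871, minus strand): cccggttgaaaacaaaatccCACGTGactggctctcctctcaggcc
ATP6V0D1 (chr16:67481191-67481236, minus strand): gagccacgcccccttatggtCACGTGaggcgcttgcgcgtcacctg
MCOLN1 (chr19:7522563-7522635, plus strand): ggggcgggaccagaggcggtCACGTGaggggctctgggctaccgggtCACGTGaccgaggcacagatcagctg
CTSA (chr20:45891273-45891335, plus strand): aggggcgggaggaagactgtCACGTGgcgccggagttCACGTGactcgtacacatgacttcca
LAMP1 (chr13:113297027-113297263, plus strand): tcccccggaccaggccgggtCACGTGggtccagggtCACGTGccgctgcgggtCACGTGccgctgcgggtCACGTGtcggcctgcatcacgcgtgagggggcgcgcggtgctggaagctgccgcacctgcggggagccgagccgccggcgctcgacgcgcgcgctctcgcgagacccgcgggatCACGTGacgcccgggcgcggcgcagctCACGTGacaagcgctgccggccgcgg
The core began 112 bases before the start in RRAGC, 21 in ATG14, 59 in ATP6V0D1, 41 and 14 in MCOLN1, and 42 and 25 in CTSA. LAMP1 held 6 cores, the first beginning 192 bases before its start and the last 1 base before it, so that the last core runs across the start. Both genes with a rise and genes with levels close to NC are among the holders, and a match of letters is a description of the window only.

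Autophagosome initiation and membrane supply had 5 of 10 genes higher with 2-DG and 0 lower, with a median log2 fold change of 0.34. WIPI1 (chromosome 17, 68421281 to 68457496), which encodes a binder of phosphatidylinositol 3-phosphate on the growing membrane, showed the largest increase of the 47 genes. It had 24.5, 29.1 and 27.7 RPKM with 2-DG, 10.3, 11.3 and 12.3 RPKM with Nala and 12.7, 8.17 and 9.21 RPKM in NC. The 2-DG libraries were clear of the others, and the rise over NC was 1.37 (SE 0.15, limma adjusted p = 0.000138). ATG13 (chromosome 11, 46617553 to 46674518) encodes the subunit that links the ULK kinases to the rest of the initiation complex. Its levels were 48.3, 55.2 and 52.4 RPKM with 2-DG, 28.03, 28.3 and 29.4 RPKM with Nala and 27.8, 28.7 and 27.1 RPKM in NC. Nala and NC libraries interleaved within a narrow range while the 2-DG libraries stood above them, and ATG13 rose by 0.87 (SE 0.076, limma adjusted p = 3.52e-05). ATG2A (chromosome 11, 64894546 to 64917209), the lipid transfer protein that feeds the membrane, had 35.4, 31.1 and 37.9 RPKM with 2-DG, 19.6, 24.2 and 22.2 RPKM with Nala and 23.1, 19.4 and 17.9 RPKM in NC, without overlap between 2-DG and NC. Its rise was 0.76 (SE 0.12, limma adjusted p = 0.000991).

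Subunits of the lipid kinase complex moved by smaller amounts. BECN1, its Beclin scaffold, had 21.8, 27.7 and 26.8 RPKM with 2-DG, 17.8, 18.1 and 18.9 RPKM with Nala and 18.3, 18.5 and 18.04 RPKM in NC, and rose by 0.45 (SE 0.10, limma adjusted p = 0.00675). ATG14, the subunit that directs the complex to forming autophagosomes, had 24.5, 22.7 and 23.9 RPKM with 2-DG, 16.1, 14.3 and 14.04 RPKM with Nala and 18.6, 16.4 and 17.3 RPKM in NC, and rose by 0.42 (SE 0.092, limma adjusted p = 0.00536). In both genes the 2-DG libraries lay above the NC libraries. UVRAG, which takes the place of ATG14 in another form of the complex, showed the smallest difference of the 10 genes. Its values were 10.4, 11.9 and 11.6 RPKM with 2-DG, 11.02, 10.6 and 11.6 RPKM with Nala and 11.3, 10.7 and 9.85 RPKM in NC, with overlapping groups and a log2 difference of 0.084 (95% interval -0.15 to 0.31). The kinase ULK1, which starts the process, had 76.9, 74.1 and 73.97 RPKM with 2-DG, 60.7, 70.4 and 68.3 RPKM with Nala and 80.01, 61.99 and 66.3 RPKM in NC. NC replicate 1 was the highest of the 9 libraries, and the log2 difference of 0.12 (95% interval -0.098 to 0.33) was not called; without NC replicate 1 it was 0.22 (limma adjusted p = 0.0492). The remaining genes not called were the related kinase ULK2, at 1.15 to 2.46 RPKM over the 9 libraries, the membrane protein ATG9A and WIPI2, the WIPI protein that recruits ATG16L1. WIPI1, ATG13, BECN1 and ATG14 each overlap another protein-coding gene of the table (WIPI1 overlaps ARSG and PRKAR1A, ATG13 HARBI1, BECN1 CNTD1 and ATG14 FBXO34), and the sources used here do not say whether counting used strand.

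**Figure D3:**
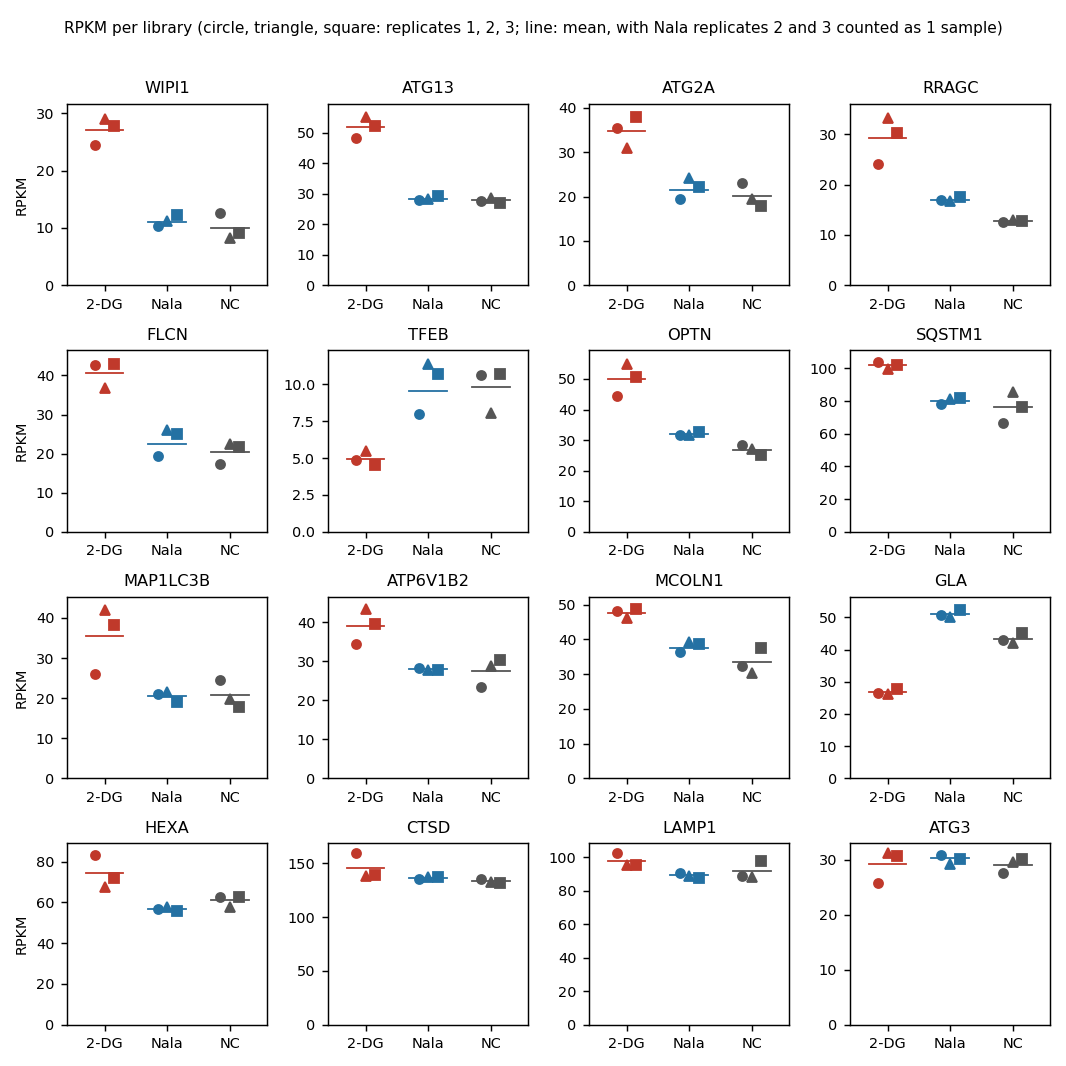
RPKM per library (vertical axes, from 0) of 16 genes in 2-DG, Nala and NC; circles, triangles and squares are replicates 1, 2 and 3, and the line is the group mean with Nala replicates 2 and 3 counted as 1 sample. WIPI1, ATG13, ATG2A, RRAGC, FLCN and OPTN had 2-DG libraries above all Nala and NC libraries, TFEB and GLA had them below, and LAMP1 and ATG3 had overlapping groups.

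The conjugation enzymes were not called in 2-DG against NC, with 0 of 5 higher, 0 lower and 0 at an unadjusted p under 0.05. Over all genes 6641 of 12922 were at an unadjusted p under 0.05 in that comparison. Voom on recovered reads, an alternative test, called 9 autophagy factors in all, the same number as limma. ATG3, the enzyme that passes ATG8 proteins to the lipid, had 25.7, 31.2 and 30.8 RPKM with 2-DG, 30.98, 29.3 and 30.3 RPKM with Nala and 27.6, 29.7 and 30.1 RPKM in NC. Its groups overlapped, with 2-DG replicate 1 the lowest library of the 9, and the log2 difference was -0.00025 (95% interval -0.21 to 0.21). The activating enzyme ATG7 differed by -0.20 (-0.44 to 0.042) and ATG5, part of the complex that directs the transfer, by 0.059 (-0.30 to 0.42). For ATG16L1, the membrane anchor of that complex, the difference was -0.063 (-0.32 to 0.19). ATG12, the ubiquitin-like partner of ATG5, differed by 0.20 (-0.050 to 0.45). Without 2-DG replicate 1, in which 4 of the 5 genes were lower than in the other 2-DG libraries, ATG12 differed by 0.28 (limma adjusted p = 0.0455).

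Of the 4 ATG8 family genes MAP1LC3B alone was called in 2-DG against NC. MAP1LC3B (chromosome 16, 87392336 to 87404774) encodes LC3B, the lipid-coupled protein used most often as a mark of autophagosomes. It had 26.1, 41.9 and 38.3 RPKM with 2-DG, 21.03, 21.5 and 18.9 RPKM with Nala and 24.5, 19.8 and 17.7 RPKM in NC. 2-DG replicate 1 was close to NC replicate 1 and the other 2-DG libraries were well above, and the rise was 0.73 (SE 0.17, limma adjusted p = 0.00826). MAP1LC3B2, a near copy that can share its reads, had 6.79, 10.7 and 11.2 RPKM with 2-DG, 5.58, 6.51 and 8.13 RPKM with Nala and 7.27, 6.79 and 4.65 RPKM in NC. GABARAPL2, a member that acts in autophagosome maturation and Golgi transport, had 37.2, 50.7 and 51.1 RPKM with 2-DG, 46.02, 47.8 and 49.1 RPKM with Nala and 44.6, 46.3 and 45.01 RPKM in NC. 2-DG replicate 1 was the lowest library and the other 2-DG libraries the 2 highest, giving a log2 difference of 0.017 (95% interval -0.24 to 0.27). The 4 ATG8 genes were lower in 2-DG replicate 1 than in the other 2-DG libraries, by a median of -0.42, and without that library GABARAPL2 (0.16, limma adjusted p = 0.0466) and GABARAP (0.26, adjusted p = 0.0182) were called higher as well. GABARAPL1 differed by 0.12 (-0.053 to 0.29), and its near copy GABARAPL3 had at most 0.810 RPKM in any library.

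Cargo receptors had 3 of 4 genes higher with 2-DG, with a median log2 fold change of 0.48. OPTN (chromosome 10, 13100082 to 13138308), which encodes optineurin, a receptor for ubiquitin-marked mitochondria and bacteria, had 44.5, 55.02 and 50.7 RPKM with 2-DG, 31.7, 31.8 and 32.6 RPKM with Nala and 28.5, 27.1 and 25.03 RPKM in NC. The 3 groups did not overlap, and the rise with 2-DG was 0.87 (SE 0.093, limma adjusted p = 0.000115). SQSTM1 (chromosome 5, 179806393 to 179838078), which encodes p62, a receptor for ubiquitin-marked aggregates that is itself degraded by autophagy, was among the most abundant of the genes in RPKM. It had 104, 99.5 and 102 RPKM with 2-DG, 78.5, 81.1 and 81.97 RPKM with Nala and 66.6, 85.5 and 76.3 RPKM in NC, the 2-DG libraries lying close together above the rest. SQSTM1 rose by 0.42 (SE 0.085, limma adjusted p = 0.00358); it overlaps MGAT4B and MRNIP. NBR1, a receptor that works beside p62, had 40.8, 46.8 and 45.3 RPKM with 2-DG, 30.3, 29.9 and 29.5 RPKM with Nala and 34.6, 29.1 and 27.6 RPKM in NC, a rise of 0.53 (SE 0.098, limma adjusted p = 0.00234). TAX1BP1, which binds ubiquitin-marked cargo together with NBR1, had 53.98, 66.5 and 62.9 RPKM with 2-DG, 56.7, 54.4 and 54.5 RPKM with Nala and 53.2, 54.4 and 50.4 RPKM in NC. Its lowest 2-DG library, replicate 1, fell among the NC libraries, and the log2 difference of 0.21 was not called (limma adjusted p = 0.0737); without that library it was 0.29 (adjusted p = 0.00592).

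The 3 lysosomal membrane proteins split into an ion channel that rose and structural glycoproteins that were not called. MCOLN1 (chromosome 19, 7522624 to 7534009), the calcium channel TRPML1, had 48.2, 46.02 and 48.8 RPKM with 2-DG, 36.3, 39.2 and 38.6 RPKM with Nala and 32.4, 30.2 and 37.6 RPKM in NC. The 2-DG libraries were within 3 RPKM of each other and above the other 6, and MCOLN1 rose by 0.51 (SE 0.090, limma adjusted p = 0.00192). LAMP1, the main coat glycoprotein, had 102, 95.6 and 95.7 RPKM with 2-DG, 90.8, 88.99 and 87.7 RPKM with Nala and 89.1, 88.01 and 97.9 RPKM in NC, with an overlap between 2-DG and NC. The log2 difference was 0.095 (95% interval -0.044 to 0.23). LAMP2, its partner, needed for fusion and for chaperone-mediated autophagy, had 30.2, 26.8 and 25.5 RPKM with 2-DG, 27.5, 23.6 and 23.1 RPKM with Nala and 25.2, 25.2 and 30.5 RPKM in NC, a difference of 0.029 (-0.22 to 0.28).

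Lysosomal hydrolases had 2 genes lower and 1 higher of the 8 tested. GLA (chromosome X, 101397803 to 101407925), which encodes the alpha-galactosidase that is deficient in Fabry disease, had 26.5, 26.2 and 27.8 RPKM with 2-DG, 50.6, 49.99 and 52.4 RPKM with Nala and 43.1, 42.00 and 44.99 RPKM in NC. The 3 groups did not overlap, 2-DG being lowest and Nala highest, and GLA fell by 0.67 (SE 0.068, limma adjusted p = 8.47e-05) with 2-DG against NC. CTSZ, which encodes the carboxypeptidase cathepsin Z, had 87.7, 84.5 and 83.6 RPKM with 2-DG, 96.7, 101 and 103 RPKM with Nala and 115, 94.1 and 103 RPKM in NC. Its 2-DG libraries were the 3 lowest of the 9, and it fell by 0.28 (SE 0.075, limma adjusted p = 0.0143); without 2-DG replicate 3 the adjusted p was 0.0503. HEXA, the alpha subunit of beta-hexosaminidase, deficient in Tay-Sachs disease, had 83.3, 67.3 and 71.98 RPKM with 2-DG, 56.7, 57.7 and 55.6 RPKM with Nala and 62.5, 57.8 and 62.9 RPKM in NC. The 2-DG libraries were above the others, and it rose by 0.27 (SE 0.084, limma adjusted p = 0.0263), a call lost under median-of-ratios scaling (adjusted p = 0.0658), with no trend in the variance (0.0571) and without 2-DG replicate 3, NC replicate 2 or NC replicate 3 (0.0524 to 0.0795).

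The aspartic protease CTSD was the most abundant of the 49 genes in RPKM. It had 159, 138 and 139 RPKM with 2-DG, 135, 138 and 137 RPKM with Nala and 136, 132 and 132 RPKM in NC. The 2-DG libraries lay just above the others and replicate 1 was the highest, and the log2 difference of 0.12 (95% interval -0.015 to 0.26) was not called. GAA, which digests glycogen in the lysosome and is deficient in Pompe disease, had 51.6, 37.1 and 38.01 RPKM with 2-DG, 34.8, 36.6 and 34.8 RPKM with Nala and 48.3, 36.04 and 39.3 RPKM in NC, a difference of 0.029 (-0.29 to 0.35). Replicate 1 was the highest library in 2-DG and in NC. The cysteine proteases CTSB and CTSL differed by -0.16 and 0.10, and CTSA, the protective protein of other hydrolases, by -0.031, and these 3 were not called. In 2-DG replicate 1 only 1 of the 8 hydrolases was lower than in the other 2-DG libraries, and their median was higher by 0.16, opposite in sign to the median of the 47 genes. NEU1, a sialidase, did not reach the filter, with 0.467, 0.443 and 0.524 RPKM with 2-DG, 0.0747, 0.0727 and 0.145 RPKM with Nala and 0, 0.147 and 0.0778 RPKM in NC. These values rest on few reads, 6, 6 and 7 with 2-DG, 1, 1 and 2 with Nala and 0, 2 and 1 in NC. The 2-DG libraries of NEU1 lay above the others, and in the fit with no filter the difference from NC was 0.46 (limma adjusted p = 0.00127).

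Proton pump subunits had 4 of 9 genes higher with 2-DG and 0 lower. ATP6V1B2 (chromosome 8, 20197381 to 20221696), a subunit of the ATP-hydrolysing head, had 34.5, 43.3 and 39.4 RPKM with 2-DG, 28.3, 27.9 and 27.8 RPKM with Nala and 23.4, 28.7 and 30.4 RPKM in NC. The 2-DG libraries were above the other 6 and it rose by 0.49 (SE 0.12, limma adjusted p = 0.00756). ATP6V1H, the regulatory H subunit of the cytosolic part, had 28.5, 39.9 and 33.8 RPKM with 2-DG, 24.6, 26.6 and 23.9 RPKM with Nala and 24.3, 24.2 and 23.7 RPKM in NC, and rose by 0.47 (SE 0.11, limma adjusted p = 0.0088). NC libraries of this gene were within 1 RPKM of each other, while the 2-DG libraries spread more widely. ATP6V0A1, the membrane subunit that lines the proton path, had 47.5, 38.4 and 36.6 RPKM with 2-DG, 34.8, 32.6 and 33.1 RPKM with Nala and 26.7, 30.04 and 32.6 RPKM in NC, a rise of 0.44 (SE 0.11, limma adjusted p = 0.0121). ATP6V0D1, which joins the membrane part to the stalk, had 51.5, 65.3 and 63.6 RPKM with 2-DG, 43.5, 50.8 and 52.2 RPKM with Nala and 46.3, 44.4 and 45.6 RPKM in NC. It rose by 0.39 (SE 0.10, limma adjusted p = 0.0132), a call lost without 2-DG replicate 2 (0.0508) or 2-DG replicate 3 (0.0529).

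ATP6V1A, the catalytic subunit that works in the same ring as ATP6V1B2, was not called and was close to NC. Its levels were 28.5, 34.8 and 32.9 RPKM with 2-DG, 38.8, 36.1 and 37.7 RPKM with Nala and 34.8, 29.2 and 32.5 RPKM in NC, and the log2 difference between 2-DG and NC was -0.0051 (95% interval -0.23 to 0.22). ATP6V1C1, a stalk subunit, differed by -0.0068 (-0.22 to 0.21) and the accessory subunit ATP6AP1 by 0.15 (-0.029 to 0.33). The stalk subunits ATP6V1D and ATP6V1E1 were not called, but both passed the threshold without 2-DG replicate 1. ATP6V1E1 had 38.2, 55.4 and 53.3 RPKM with 2-DG, 43.3, 43.1 and 44.6 RPKM with Nala and 38.6, 40.3 and 40.4 RPKM in NC, with 2-DG replicate 1 below the NC libraries and the other 2-DG libraries above them. Its difference of 0.28 (limma adjusted p = 0.103) was 0.44 (adjusted p = 0.00077) without that library. For ATP6V1D the difference was 0.29 (limma adjusted p = 0.0671) with the library and 0.43 (adjusted p = 0.00108) without it, and with the library kept it was also called under quantile normalization (adjusted p = 0.0409) and with the Nala libraries kept apart (0.048). In 2-DG replicate 1 the pump genes were lower than in the other 2-DG libraries in 7 of 9 cases, with a median of -0.25.

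**Figure D4:**
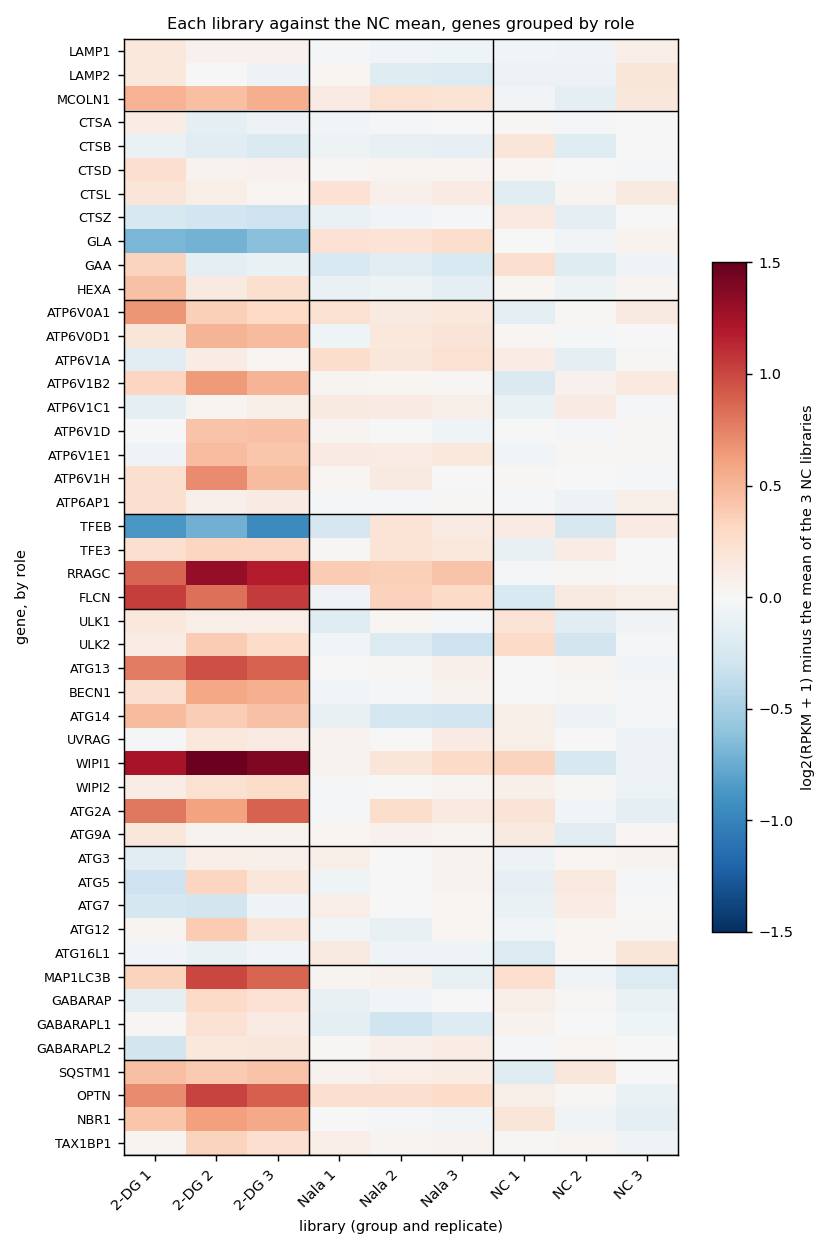
Log2(RPKM + 1) of each of the 47 tested genes (rows, grouped by role) in each of the 9 libraries (columns, 2-DG, Nala, NC), given as the difference from the mean of the 3 NC libraries; red is higher and blue lower. The 2-DG columns are red for RRAGC, FLCN, ATG13, WIPI1, ATG2A and OPTN and blue for GLA and TFEB, and 2-DG replicate 1 differs from its group in the ATG8 and pump genes.

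Lysosome and autophagy genes were not called in Nala against NC. With limma 0 of the 47 genes were called higher and 0 lower, against 0.0619% of all genes higher (8 of 12922) and 0% lower. At an unadjusted p under 0.05 there were 4 of the 47 genes, against 725 of all 12922 genes. Voom on the recovered reads and the fit with the 3 Nala libraries kept apart also called 0 of the 47. The median log2 fold change was 0.035, against 0.0061 over all genes. Among the 4 genes RRAGC differed by 0.38 (limma adjusted p = 0.623), and the Nala libraries, listed above, lay above the NC libraries. GLA differed by 0.23 (adjusted p = 0.62) and OPTN by 0.24 (adjusted p = 0.851), also without overlap between Nala and NC. GABARAPL1 had 41.2, 37.1 and 40.1 RPKM with Nala and 47.7, 46.2 and 43.8 RPKM in NC, a difference of -0.20 (adjusted p = 0.873) without overlap. The 95% intervals of the 47 genes ran from -0.61 at the lowest (ULK2) to 0.68 at the highest (RRAGC) with 2 samples of Nala, and 4 of them, those of RRAGC, GLA, OPTN and GABARAPL1, did not include 0. For WIPI1 the Nala interval was -0.23 to 0.52 and for ATG13 -0.16 to 0.22, below the 2-DG values of 1.37 and 0.87.

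The direct comparison of Nala with 2-DG, which shares the 2-DG libraries with the first comparison and the Nala libraries with the second, had 2 of 47 genes higher and 17 lower, against 17.8% of all genes higher and 18.1% lower. The median log2 fold change was -0.20, against -0.0085 over all genes. If the series design gives the right time for Nala, treatment and time in culture cannot be told apart in this comparison. GLA was higher with Nala by 0.90 (SE 0.077, limma adjusted p = 4.9e-05) and TFEB by 0.81 (SE 0.17, limma adjusted p = 0.00668). The genes lower with Nala included WIPI1, with a log2 fold change of -1.22, ATG13 with -0.85, FLCN with -0.84, RRAGC with -0.74 and MAP1LC3B with -0.73. By class, autophagy factors had 0 higher and 10 lower of 23, pump subunits 0 and 3 of 9, and lysosomal enzymes 1 and 1 of 8. The count of 17 lower was 7 without Nala replicate 1, 10 without 2-DG replicate 3 and 23 without 2-DG replicate 1. Over all genes 2341 were lower with every library in, 1028 of 12867 without Nala replicate 1, 1604 of 12790 without 2-DG replicate 3 and 2738 of 12804 without 2-DG replicate 1. Autophagy factors lower with Nala numbered 5 without Nala replicate 1, and pump subunits 0 without Nala replicate 1, 2-DG replicate 2 or 2-DG replicate 3 and 5 without 2-DG replicate 1.

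Beyond the 49 genes, 153 further genes of the same pathways were listed by role, of which 144 were tested. This list too was chosen with earlier results of these data known. With 2-DG against NC 45 rose and 23 fell (31.2% and 16%, median 0.14), against 22.6% and 20.7% of all genes. Further autophagy factors had 19 higher and 2 lower of 37 (51.4% and 5.41%), with a median of 0.34. Further hydrolases and their activators had 4 higher and 11 lower of 35 (11.4% and 31.4%), with a median of 0.0028. Further pump subunits had 1 higher and 1 lower of 13 (7.69% each). Other lysosomal membrane proteins had 9 higher and 4 lower of 19 (47.4% and 21.1%). Nutrient sensing genes had 8 and 3 of 28 (28.6% and 10.7%), and genes of sorting to the lysosome 4 and 2 of 12 (33.3% and 16.7%). The 23 lower genes numbered 12 without 2-DG replicate 3 or NC replicate 3 and 14 without 2-DG replicate 2. Over all genes 2677 were lower with every library in, 2128 without 2-DG replicate 3, 2079 without NC replicate 3 and 2235 without 2-DG replicate 2. The all-gene lower count was 2499 without NC replicate 1 and 2409 without Nala replicate 1. All genes higher numbered 2916 with every library in, 2772 without NC replicate 1 and 3296 without 2-DG replicate 1. Of the hydrolases and activators, the 11 lower numbered 4 without 2-DG replicate 3 or NC replicate 3, 5 without 2-DG replicate 2, 6 without NC replicate 1 and 7 without Nala replicate 1, and the 4 higher numbered 7 without NC replicate 1. Without 2-DG replicate 1, 13 nutrient sensing genes were higher, as were 3 further pump subunits (ATP6V1F, ATP6V1G1 and ATP6V0E1), while TCIRG1 was the 1 lower. The pump subunit called higher with every library in, ATP6V0A2, lost its call without 2-DG replicates 1 or 3 or NC replicates 1 or 2, and the one called lower, ATP6V0E2, without 2-DG replicates 1 or 3 or NC replicates 1 or 3. In Nala against NC 0 of the 144 were called by limma, with 6 at an unadjusted p under 0.05, against 725 of all 12922 genes.

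The largest rise among these further genes was that of LAMP3, a relative of LAMP1 best known from dendritic cells and stressed tumour cells, with 25.4, 27.8 and 21.3 RPKM with 2-DG, 0.556, 0.225 and 0.450 RPKM with Nala and 0.789, 0.366 and 0.482 RPKM in NC. Nearly all of its RNA was in the 2-DG libraries, and the rise over NC was 4.06 (SE 0.16, limma adjusted p = 8.61e-07). LAMP3 passed the filter of 1 RPKM through its 2-DG libraries only, since each Nala and NC library was under 1 RPKM. TP53INP1, a p53 target that binds ATG8 proteins, had 36.2, 39.9 and 35.4 RPKM with 2-DG, 6.27, 8.76 and 7.85 RPKM with Nala and 9.49, 4.92 and 5.84 RPKM in NC, a rise of 2.34 (SE 0.20, limma adjusted p = 2.83e-05). SESN2, a stress-induced leucine sensor that restrains mTORC1, had 47.5, 57.6 and 52.4 RPKM with 2-DG, 14.8, 18.3 and 19.6 RPKM with Nala and 15.03, 12.3 and 15.5 RPKM in NC, a rise of 1.81 (SE 0.13, limma adjusted p = 9.7e-06). In these 3 genes the 2-DG libraries did not overlap the other 6. CALCOCO1, a receptor for autophagy of the endoplasmic reticulum, rose by 1.26 (SE 0.13, limma adjusted p = 8.43e-05) and ZFYVE1, a marker of the membranes from which autophagosomes form, by 0.99 (SE 0.13, limma adjusted p = 0.000419). MAP1LC3A, an LC3 paralogue, had 9.83, 9.16 and 5.83 RPKM with 2-DG, 2.51, 3.82 and 3.51 RPKM with Nala and 6.77, 1.71 and 3.43 RPKM in NC. Its 2-DG and NC libraries overlapped, and the rise of 1.00 (SE 0.35, limma adjusted p = 0.0409) was lost without any one of 2-DG replicates 1 and 2, Nala replicate 1 and NC replicates 2 and 3 (adjusted p = 0.0568 to 0.115), with no filter on low values (0.078), with no trend in the variance (0.0559) and with the compared groups fitted alone (0.0569).

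Among further genes with a mean of at least 5 RPKM in the higher group, the largest falls were those of CTSC, CASTOR2, CD68 and HYAL2; among genes of lower level CTSV and SESN3 fell by more (1.61 and 1.26). CTSC, the dipeptidyl peptidase that activates serine proteases of immune cells, had 10.9, 8.38 and 8.80 RPKM with 2-DG, 20.8, 19.2 and 18.96 RPKM with Nala and 20.7, 22.7 and 23.1 RPKM in NC, and fell by 1.17 (SE 0.11, limma adjusted p = 6.63e-05). CASTOR2, a paralogue of the arginine sensor CASTOR1, had 37.6, 31.8 and 38.5 RPKM with 2-DG, 66.4, 79.3 and 69.2 RPKM with Nala and 90.2, 65.1 and 71.1 RPKM in NC, and fell by 1.04 (SE 0.12, limma adjusted p = 0.000217). For CD68, a lysosomal glycoprotein abundant in macrophages, the fall was 1.02 (SE 0.20, limma adjusted p = 0.00324), and for HYAL2, a hyaluronidase, 0.80 (SE 0.087, limma adjusted p = 0.000131). The 2-DG libraries of these 4 genes lay below the NC libraries. Summed levels of 4 immune marker genes, among them PTPRC and CSF1R, were at most 1.10 RPKM with 2-DG, 2.36 with Nala and 3.32 in NC, and PTPRC had at most 2 reads per library.

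**Figure D5:**
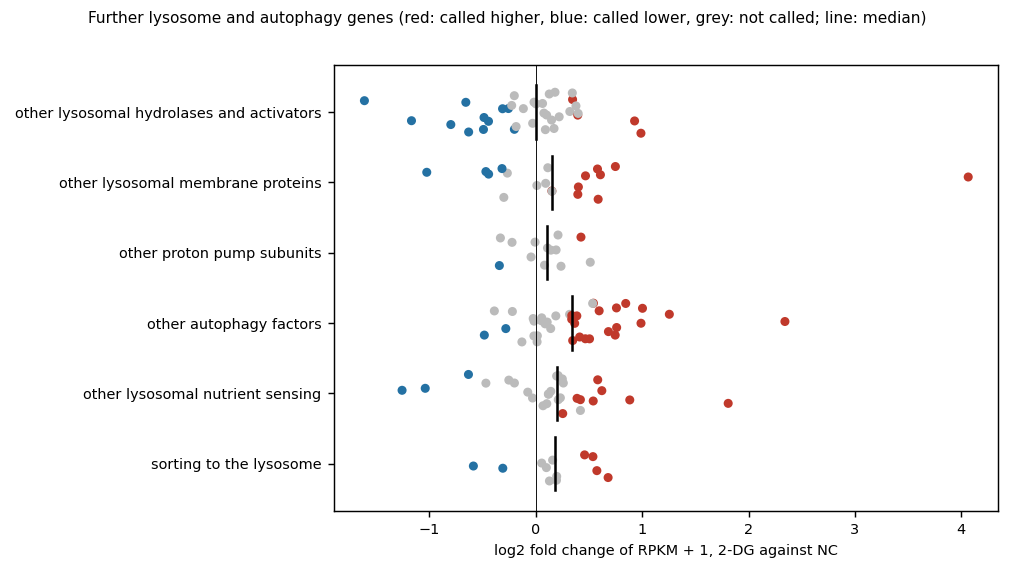
Log2 fold change of RPKM + 1 in 2-DG against NC for the 144 further tested genes, 1 point per gene in 6 role groups (rows), red where called higher and blue where called lower, with the group median as a black line. The point at 4.06 is LAMP3, and the other autophagy factors have most of their coloured points to the right of 0.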

How the data were processed

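RNA-seq was read from 9 libraries, 3 each of 2-DG, Nala and NC, grouped by the labels. The deposited table gives RPKM, which the authors scaled by gene model length and counted total. Per the submitters' processing notes, hg38 was the build, and RSEM 1.2.8, HISAT2 2.1.0 and STAR 2.7.6a are among the tools listed without saying which assay each served. The sources used here do not say which of them made the RPKM values, nor whether duplicates were removed or strand was used. Libraries were made with an mRNA kit of BGI, per the labels' protocols.

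For 100% of genes the values were whole multiples of 1 read, within 0.0001 reads, which gave the depths and 99.87% to 99.88% of each counted total. The 12922 genes that reached 1 RPKM in 3 or more libraries were fitted together as log2(RPKM + 1) with limma 3.58.1 in R 4.3.3, with an intensity trend, over 8 samples (Nala replicates 2 and 3 averaged on the log2 scale) and 5 residual degrees of freedom. Benjamini-Hochberg adjustment ran over all genes tested, comparison by comparison, and calls were made at 0.05. Fold changes on this scale understate changes of low genes. The fit was also run on simulated reads of independent libraries. These held neither the gene length effect nor the Nala pair described above, so that run does not cover them. Members and lists were chosen with earlier results of these data known. Named genes were, per role, up to 3 called genes with the largest change and the gene with the smallest, plus LAMP1, CTSD, ATP6V1A, TFEB, TFE3, SQSTM1, MAP1LC3B and ULK1; of the further genes, the 6 largest rises and 4 largest falls with a mean of at least 5 RPKM in the higher group. Other genes were named after their values were seen. Of the 153 further genes, 150 matched the table by symbol. Gene positions are those of RefSeq GRCh38.p14. Alternatives were a pseudocount of 0.1, 2 other filters, 3 scalings, no trend, the compared groups alone, the Nala libraries kept apart, a replicate block, voom on recovered reads and each library left out. Recovered reads cover counting error only.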

Additional observations from a re-analysis of the deposited data

How the results depend on the processing

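Of the counts of lysosome and autophagy genes, most stayed within 1.5 times their value under the alternatives. With each library left out in turn, genes higher with 2-DG against NC numbered 15 to 25 and lower 2 to 3. All genes higher in that comparison numbered 2058 to 3296 and lower 2079 to 2722. Autophagy factors higher numbered 9 to 14, pump subunits higher 3 to 6, enzymes higher 0 to 1 and enzymes lower 1 to 2. Lysosome and autophagy genes lower in Nala against 2-DG numbered 7 to 23, while all genes lower there numbered 1028 to 2738. Enzymes higher with 2-DG numbered 2 with no filter on low values, where NEU1 enters, and 0 under median-of-ratios scaling and 0 with no trend, where HEXA was not called. In Nala against NC 0 lysosome and autophagy genes were called under each alternative run, while the count over all genes, 8 higher and 0 lower, was 59 and 5 with the Nala libraries kept apart and 64 and 8 with voom. It was 15 higher with a filter of 5 RPKM, 17 under quantile normalization, 16 with a common library sum, 13 under median-of-ratios scaling and between 1 (without Nala replicate 1) and 22 (without 2-DG replicate 1) with each library left out. Median-of-ratios scaling gave 2766 genes higher and 2875 lower with 2-DG over all genes. Over all genes, deviations of libraries with the same replicate number had correlations from -0.119 to 0.077. However, 2-DG replicate 1 and Nala replicate 1 both deviated with gene length in the same direction, as given above. Whether equal numbers mark shared handling was not tested. With the replicate block and the Nala libraries kept apart, 18 genes were higher and 3 lower with 2-DG. All genes in Nala against NC then numbered 30 higher and 1 lower. For the 38 named genes in 2-DG and in Nala against NC 1492 values stayed on their side of the threshold, 18 lost a call and 4 gained one; in Nala against 2-DG 728 stayed, 22 lost a call and 7 gained one. In all 3 comparisons 0 called values changed sign; the causes were not tested. Depth limits ULK2, NEU1 and RRAGD most, the genes near or under the filter.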

Other observations

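Several small families held genes that moved in opposite directions with 2-DG against NC; they were picked after their values were seen. Among the sestrins, stress-induced inhibitors of mTORC1, SESN1 rose by 0.88 (SE 0.15, limma adjusted p = 0.0016) beside the rise of SESN2 given above, while SESN3 had 0.632, 0.761 and 0.542 RPKM with 2-DG, 2.02, 2.58 and 2.40 RPKM with Nala and 4.30, 1.86 and 2.99 RPKM in NC and fell by 1.26 (SE 0.22, limma adjusted p = 0.00192). CASTOR1, the arginine sensor, had 2.46, 3.21 and 2.44 RPKM with 2-DG, 1.48, 2.30 and 1.87 RPKM with Nala and 1.70, 1.31 and 1.62 RPKM in NC and rose by 0.54 (SE 0.17, limma adjusted p = 0.0256), beside the fall of CASTOR2. The call of CASTOR1 was lost without 2-DG replicate 2, 2-DG replicate 3, NC replicate 2 or NC replicate 3 (adjusted p = 0.0528 to 0.101). MITF, the relative of TFEB and TFE3 that governs pigment cells, had 9.11, 11.8 and 9.67 RPKM with 2-DG, 15.6, 14.4 and 14.5 RPKM with Nala and 14.04, 18.6 and 16.4 RPKM in NC and fell by 0.63 (SE 0.13, limma adjusted p = 0.00428), in the direction of TFEB.

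With every library in, further hydrolases and activators had 4 higher and 11 lower of 35 with 2-DG against NC. These are 11.4% and 31.4%, against 22.6% and 20.7% of all genes. Both counts depended on single libraries, and without NC replicate 1 more were higher than lower, as given above. The iduronate sulfatase IDS had 12.6, 16.2 and 14.01 RPKM with 2-DG, 7.43, 7.56 and 6.94 RPKM with Nala and 6.82, 7.64 and 6.51 RPKM in NC, a rise of 0.93 (SE 0.12, limma adjusted p = 0.000348). CTSV, a cysteine protease close to CTSL, had 0.336, 0.382 and 0.387 RPKM with 2-DG, 2.32, 2.22 and 2.06 RPKM with Nala and 4.39, 1.91 and 3.65 RPKM in NC and fell by 1.61 (SE 0.22, limma adjusted p = 0.000522), while CTSL itself was not called. These genes were also picked after their values were seen.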
